A study of Mus musculus with 4 samples.

Results

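LMO2 is a LIM-only adaptor protein that has no DNA-binding domain of its own and joins chromatin through partners such as bHLH proteins and GATA factors. Its binding was measured by chromatin immunoprecipitation and sequencing (ChIP-seq) in a pro-B(+) cell line, and the peaks described here are those that lay in annotated repeat elements. A peak was taken when the deposited annotation gave it a repeat name, class and family and when its centre was more than 2500 bp from the nearest transcription start site (TSS). This rule took 231 of the 1585 listed peaks, or 14.6% (Wilson 95% interval, 12.9 to 16.4). The rule used the annotation and the distance and did not use the peak score, the focus ratio or the sequence.

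The pro-B(+) line is an Ebf1-deficient line derived from fetal liver, labelled C57BL6/J, and was kept on OP9 stromal cells with SCF, IL-7 and Flt3L. There were 2 LMO2 ChIP samples and 2 input samples, all from this line. Cells were fixed with DSG and then formaldehyde, and the ChIP used a mixture of 3 antibodies against LMO2 at 2 µg each. All groups share the Ebf1 deficiency, and a cell line is a limited model of the progenitors it came from.

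The list held 1 value per peak for both ChIP samples together. No value per replicate and no read depth could be read from it, so differences between groups of peaks could not be set against a replicate spread and are given as counts, medians and ranges. Intervals of shares cover the number of peaks counted only. The list held no expression values, so the identity of the cells could not be checked against marker genes.

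Repeat elements are the remains of mobile DNA. LTR elements descend from retroviruses or related retroelements, and a full-length copy carries the same long terminal repeat, which holds its promoter, at either end. LINEs copy themselves through RNA, SINEs rely on LINE enzymes to do so, and DNA transposons moved by excision and insertion. Young copies resemble each other closely, whereas old families such as MIR and L2 have diverged between copies. RUNX and ETS factors, whose sites are frequent in regulatory DNA of blood cells, bind short words that such elements can carry.

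The sequences of the MaLR peaks on chromosome 5 are shown first because 13 peaks there carried a RUNX word and an ETS word in a fixed arrangement. Sequences were read from RefSeq GRCm38.p6, the same assembly as the mm10 build of the list, and are written so that the RUNX word reads TGTGGT. Capitals mark the RUNX word TGTGGT, the ETS word CTTCCT, here on its opposite strand as AGGAAG, and the MYB word CAACTG, here as CAGTTG. The bases of the first line were shared by 10 of the 13 peaks, 4 of them in MTEa elements, and the remaining lines are the variants found in the other peaks.
MTE2b, chr5:11034652-11034696, minus strand: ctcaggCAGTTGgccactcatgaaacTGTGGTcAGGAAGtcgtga
MTE2b, chr5:11410936-11410980, minus strand: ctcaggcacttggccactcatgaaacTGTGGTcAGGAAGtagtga
MTEa, chr5:11912572-11912616, minus strand: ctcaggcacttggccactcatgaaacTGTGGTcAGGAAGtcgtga

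In ORR1D2, another MaLR element, copies on different chromosomes are shown because 4 of the 6 peaks with a RUNX word had TTCC, the core of the ETS word, ending 4 bases before it. Capitals mark the RUNX word and, where all its letters were present, the ETS word CTTCCT.
ORR1D2, chr16:91789918-91789956, minus strand: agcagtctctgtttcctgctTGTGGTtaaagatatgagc
ORR1D2, chr2:122673006-122673044, minus strand: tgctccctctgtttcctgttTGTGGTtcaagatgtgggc
ORR1D2, chr10:44029748-44029786, plus strand: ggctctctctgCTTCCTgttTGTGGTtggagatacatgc
ORR1D2, chr8:85531644-85531682, minus strand: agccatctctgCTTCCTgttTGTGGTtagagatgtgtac

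Listed peaks are 207 bp long, and those with the highest score of MTE2b, ORR1D2, ORR1F and MTD are printed whole on the plus strand to show how the words lay within a peak. In these, capitals mark the RUNX word, the ETS word and the bHLH word CAGCTG but not the MYB word, and ACCACA is the RUNX word on the opposite strand. In the ORR1F peak the RUNX and ETS words overlapped by 1 base.
MTE2b, chr5:11034556-11034762, plus strand: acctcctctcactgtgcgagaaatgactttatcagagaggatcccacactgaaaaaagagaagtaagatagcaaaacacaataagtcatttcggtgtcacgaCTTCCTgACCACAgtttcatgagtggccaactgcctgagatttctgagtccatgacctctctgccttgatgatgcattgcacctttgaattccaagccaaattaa
ORR1D2, chr16:91789823-91790029, plus strand: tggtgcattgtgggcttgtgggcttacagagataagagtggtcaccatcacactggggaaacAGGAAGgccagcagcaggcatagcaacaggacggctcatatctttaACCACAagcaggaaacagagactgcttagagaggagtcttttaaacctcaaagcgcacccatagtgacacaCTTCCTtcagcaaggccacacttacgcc
ORR1F, chr1:40051281-40051487, plus strand: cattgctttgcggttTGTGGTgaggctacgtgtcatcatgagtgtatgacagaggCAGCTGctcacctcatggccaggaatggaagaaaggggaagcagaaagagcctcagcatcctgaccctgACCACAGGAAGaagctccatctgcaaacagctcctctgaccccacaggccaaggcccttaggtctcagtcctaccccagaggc
MTD, chr13:3832509-3832715, plus strand: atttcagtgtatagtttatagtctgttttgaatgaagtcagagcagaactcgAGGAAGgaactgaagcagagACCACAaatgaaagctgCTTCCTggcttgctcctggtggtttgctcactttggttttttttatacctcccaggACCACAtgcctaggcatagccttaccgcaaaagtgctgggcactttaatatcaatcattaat

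The highest-scoring SINE, LINE and DNA transposon peaks are printed in the same way, as the strongest examples outside LTR elements.
MIRc, chr9:60999115-60999321, plus strand: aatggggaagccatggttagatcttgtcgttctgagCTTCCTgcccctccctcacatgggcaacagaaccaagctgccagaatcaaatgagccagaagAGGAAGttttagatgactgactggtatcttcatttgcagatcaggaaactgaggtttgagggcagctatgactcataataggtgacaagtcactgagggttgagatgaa
L1M3, chr7:55784641-55784847, plus strand: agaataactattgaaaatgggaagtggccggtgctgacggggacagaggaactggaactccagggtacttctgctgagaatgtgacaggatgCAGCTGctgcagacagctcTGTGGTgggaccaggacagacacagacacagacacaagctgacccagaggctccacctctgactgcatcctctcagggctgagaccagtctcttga
URR1B, chr7:47022625-47022831, plus strand: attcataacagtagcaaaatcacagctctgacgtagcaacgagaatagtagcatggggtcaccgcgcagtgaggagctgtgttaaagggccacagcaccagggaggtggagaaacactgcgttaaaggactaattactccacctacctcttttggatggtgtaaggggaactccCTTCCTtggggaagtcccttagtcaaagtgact

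LTR elements held 134 of the 231 peaks (58.0%, 51.6 to 64.2), with copies that share sequence counted as separate peaks. LINEs held 38, SINEs 29, DNA transposons 11 and simple repeats 4. The other 15 peaks lay in copies of small nuclear or nucleolar RNA genes (11), in sequence annotated as ribosomal RNA (2) and in elements of no assigned class (2). Among LTR peaks, 57 lay in MaLR, 35 in ERV1, 29 in ERVK and 13 in ERVL elements. The peaks fell in 105 different elements, of which 63 had only 1 peak, and 15 elements with 4 or more peaks together held 104 peaks. In LTR elements, 128 peaks were in the terminal repeats and 6 in internal parts. By the annotation 153 peaks were intergenic and 78 lay in introns (33.8%, 28.0 to 40.1), against 486 of 1072 (45.3%, 42.4 to 48.3) of the other listed peaks that likewise lay in introns or intergenic sequence more than 2500 bp from a TSS. The intron share was 27.6% in LTR, 27.3% in DNA transposon, 42.1% in LINE and 58.6% in SINE peaks. Without peaks mainly of recurring words it was 39.0% of repeat peaks. LTR elements then held 76 of 159 repeat peaks and were no longer the majority. With each group of peaks linked by shared words counted once, LTR elements held 97 of 187. The interval of the LTR share does not cover this dependence on copied sequence. Beside the annotation, the lower-case bases that mask repeats in the reference were counted. They made up a median of 21.5% of the 200 bp at the centre of repeat peaks and 0% in the other listed peaks. No masked base was found in 61 of the 231 windows, among them all 6 RLTR3_Mm windows, and in 779 of the 1353 others. The median was 10.5% in LINE and 12.0% in SINE windows. How the reference was masked is not given in the sources used here, so the masking cannot decide whether a label is right.

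The threshold of 2500 bp left out 10 peaks in repeat elements, 6 of them in LTR elements, with scores of 15.8 to 97.7. Just inside it lay an MTD peak 2540 bp from Efcc1 (score 36.5), a B4 peak 2698 bp from Aaed1 (score 18.3) and an ORR1C1 peak 2932 bp from 4931406C07Rik (score 19.1). Just outside it lay an RLTR6_Mm peak at 2327 bp (score 26.2), an RLTR4_Mm peak 1994 bp from 0610039K10Rik (score 69.0) and an MIRc peak 1819 bp from Adssl1 (score 21.8).

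The peak score, HOMER's normalized measure of the height of a peak, ran from 15.0 to 113.2 in repeat elements with a median of 21.0 (quartiles 17.4 and 29.2). In the 1354 other listed peaks the median was 20.2 (16.9 and 27.6). In the 1072 of them in introns or intergenic sequence more than 2500 bp from a TSS it was 20.65 (17.0 and 28.7). Of these 1072, 22.8% scored 30 or more, against 23.4% of repeat peaks. LTR peaks had a median of 22.6, LINE peaks 22.1, SINE peaks 18.9 and DNA transposon peaks 17.0, and the 4 simple repeat peaks scored between 16.1 and 24.6. A score of 30 or more was listed for 43 of the 134 LTR peaks (32.1%), 7 of 38 LINE peaks (18.4%), 2 of 29 SINE peaks (6.90%) and none of 11 DNA transposon peaks, which allows a share of up to 27.3%, against 21.3% of the other listed peaks. Within LTR elements the median was highest in ERVK at 29.4, followed by ERV1 at 23.3, MaLR at 22.6 and ERVL at 20.3. This order was not kept when recurring sequence was taken into account: with identical windows counted once the medians were 23.0 in ERVK, 22.1 in MaLR, 21.1 in ERV1 and 20.3 in ERVL, and without peaks mainly of recurring words (no fewer than 50% of their 50-base words with a further copy in the genome) they were 20.3, 20.6, 16.6 and 20.3. The quartiles of the 4 families overlapped, with 19.2 and 41.2 in ERVK and 16.2 and 24.3 in ERVL. Of the 20 highest-scoring peaks of the whole list, 8 were LTR peaks, 7 of them in ERVK and 1 in ERV1. All 8 were mainly of recurring words, and 6 of them were in RLTR3_Mm. Of the 43 LTR peaks with a score of 30 or more, 26 were mainly of recurring words. Among the 76 LTR peaks that were not, 17 (22.4%) had such a score, near the 21.3% of the other listed peaks.

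**Figure D1:**
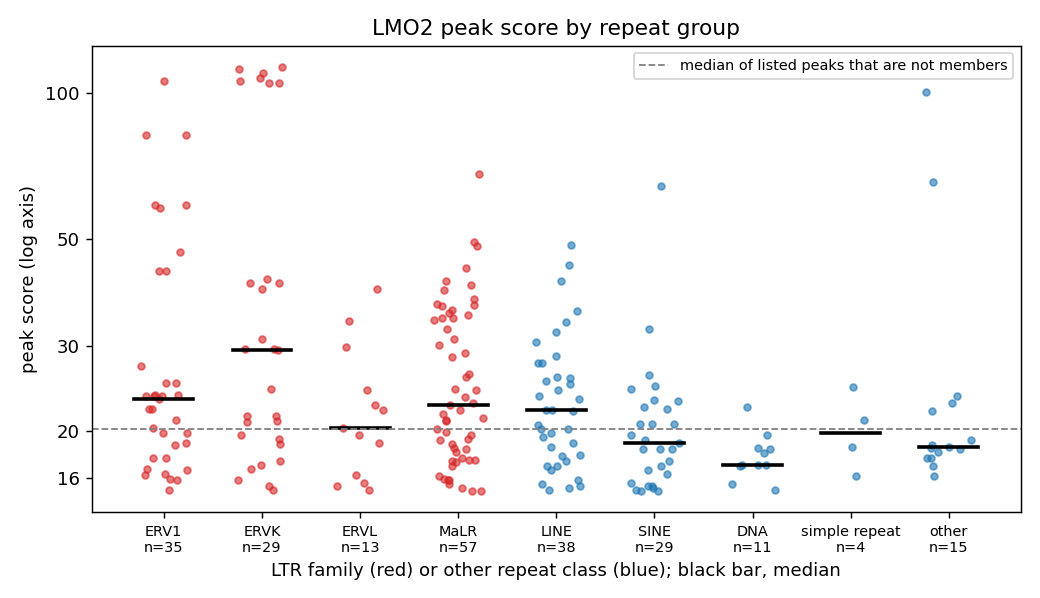
Each point is a peak in a repeat element, with its deposited score on a log axis, grouped by LTR family (red) or other repeat class (blue). Black bars are medians and the dashed line is the median of 20.2 of the listed peaks outside the set. Scores above 100 appear in ERVK, in ERV1 and in the group of other classes.

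LTR peaks were often in sequence that recurs in the genome, which bears on how their scores can be read. At least 50% of the 50-base words of the 200 bp at the peak centre were found more than once in the genome for 72 of the 231 peaks (31.2%, 25.5 to 37.4), against 8.65% (7.26 to 10.3) of the other listed peaks on chromosomes. Among the 1072 other peaks in introns or intergenic sequence more than 2500 bp from a TSS the share was 6.06% (4.8 to 7.7). Of the 72 repeat peaks, 58 were LTR peaks, with 26 of 35 in ERV1, 13 of 29 in ERVK, 17 of 57 in MaLR and 2 of 13 in ERVL. None of the 29 SINE peaks, which allows a share of up to 10.3%, and 1 of the 38 LINE peaks was of this kind, although these classes have many copies in the genome. The 58 repeated LTR peaks had a median score of 26.2 and the other 76 had one of 19.8. The authors retained reads that matched up to 10 places, and how such reads were counted is not given in the sources used here. Reads from exact copies cannot be assigned by sequence, so peaks in such copies may hold the same reads. The part of this in the scores was not tested.

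ERVK peaks included the highest scores in the set. All 6 RLTR3_Mm peaks scored between 105.0 and 113.2, and their focus ratios, the fraction of reads that lie on the proper side of the peak centre for their strand, lay between 0.692 and 0.715. They formed 3 pairs with starts 8568 to 8573 bp apart. These lay within Coro2a (a coronin, of a family that binds actin), within the Igk locus, which encodes the immunoglobulin kappa light chain, and within Gm40892 on chromosome 12. The TSS that the list named was 677 and 685 kb away for the Igk pair and 553 and 561 kb away for the chromosome 12 pair. Scores within a pair differed by 0.8 to 2.7. The words of these 6 windows were found 6 times in the genome, at the median word. No RLTR3_Mm window held a RUNX word, which with 6 windows allows a share of up to 50.0%, and 4 of 6 held an ETS word. The 6 windows shared words with each other, so they are not separate and this limit may be too low. An RLTR44-int peak 51.8 kb from Llph scored 104.9 with a focus ratio of 0.664 and held recurring sequence as well, a fraction 0.914 of its words.

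RLTR45, also ERVK, differed from RLTR3_Mm in both respects. All 9 RLTR45 peaks held a RUNX word, and their focus ratios were 0.778 to 0.837. Of these, 3 lay near the serpin genes Serpinb9f and Serpinb9g on chromosome 13, with scores of 40.5, 40.5 and 39.3, and shared their words with each other. The other 6 scored between 15.8 and 29.6.

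ERV1 peaks were mostly RLTR4_Mm (16 peaks) and RLTR6_Mm (9 peaks), elements related to murine leukaemia viruses. RLTR4_Mm scores ran from 17.6 to 106.2 with a median of 34.0. The highest lay 21.0 kb from Ly6e, which encodes a GPI-anchored protein of lymphocytes and other cells. The next were a pair of 81.9 and 81.8 within Camk2b (a calmodulin-dependent kinase), for one of which the list named Ykt6, a SNARE protein. Of the 16 peaks, 14 formed 7 pairs 5113 to 8215 bp apart, and in 5 pairs both scores were equal to the decimal given. These included pairs near Fcrla, an Fc receptor-like gene of B cells (19.8 each), in AI506816 (42.8 each) and on Y, where the nearest listed gene, Rbmy, was 1024 and 1032 kb away (25.1 each). Pairs thus had like scores while pairs at different places differed widely, and all 16 windows consisted entirely of recurring words.

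RLTR6_Mm peaks were alike at every place. Their scores lay between 16.3 and 27.3 with a median of 23.3, and their focus ratios of 0.931 to 0.963 stood above the highest focus ratio of the peaks outside the set, 0.924, which was itself in an RLTR6_Mm element left out for its distance to a TSS. Within the set, a pair of RLTR4_Mm peaks on chromosome 12 (0.989 each) and an LSU-rRNA_Hsa peak (0.988) had higher ratios. A RUNX word was found in 9 of 9 RLTR6_Mm windows, and an ETS, bHLH or GATA word in none, which with 9 windows allows a share of up to 33.3% for each. Since they shared words with other listed peaks, these 9 windows are not separate, and this limit may be too low. Their words were found a median of 49 times in the genome, above the limit of 10 places for reads, as for 12 LTR peaks in all. Pairs lay 4403 bp apart within the Tcrb locus, which encodes the T-cell receptor beta chain, and 4602 bp apart near Cks2, a subunit of cyclin-dependent kinases. RLTR30D2_MM, the remaining ERV1 element with 4 or more peaks, was at most 3.31% recurring. In all 5 of its peaks the RUNX word was followed by TATC, so that its last base began TTATC, the opposite strand of the GATA core GATAA. This arrangement, looked for after the sequences were seen, was in 2 of 1353 other windows (0.148%). A whole GATA word as counted here (AGATAA or TGATAA) was in 2 of the 5 windows. RLTR30D2_MM scores were 15.1, 15.8, 15.9 and 16.2, and 46.8 for the peak within Ddi2, a protease of the ubiquitin system.

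**Figure D2:**
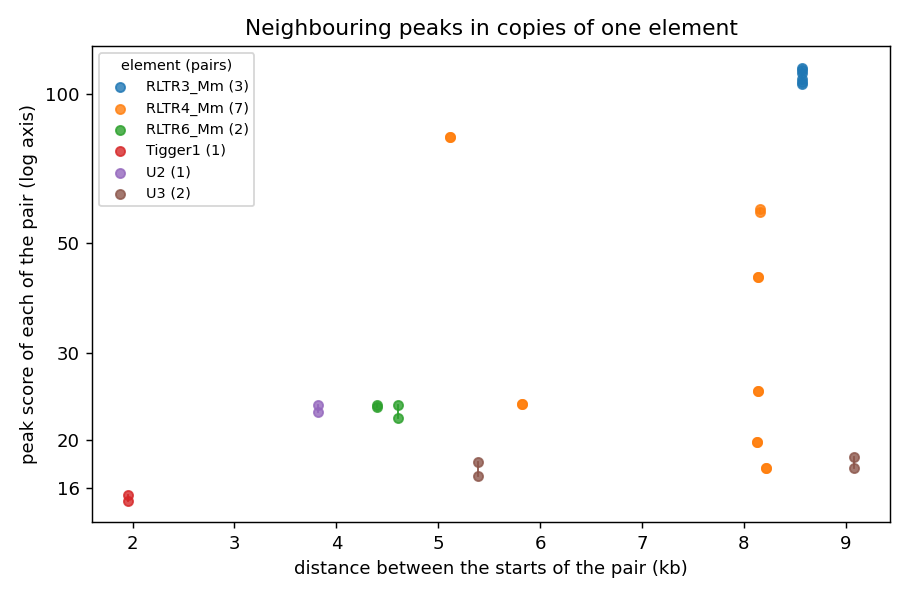
Each joined pair of points is a pair of neighbouring peaks in copies of one element less than 10 kb apart, with the distance of their starts in kb and the score of each on a log axis. The 16 pairs cover 6 elements and no pair differed by more than 2.7 in score.

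Neighbouring peaks of one element thus had like scores. Of the 16 such pairs within 10 kb, 12 were in LTR elements, and their scores differed by a median of 0.2 and at most 2.7. Neighbouring pairs of different elements differed by 1.9, 2.4 and 4.6. Scores of the whole list lie close together, with quartiles of 16.9 and 27.7 and a lower limit of 15. How often other pairs of peaks differ as little was not tested. Over all repeat peaks, 64 shared at least 50% of their words with another listed peak and fell into 20 groups. Counting each such group once left 187 separate peaks. Within these groups the score range had a median of 1.0, with 63.4 the highest, in a group of 6 RLTR4_Mm peaks from 42.8 to 106.2.

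MaLR peaks held both RUNX and ETS words. A RUNX word was found in 45 of 57 windows (78.9%, 66.7 to 87.5) and an ETS word in 48 (84.2%, 72.6 to 91.5), against 53.0% (50.3 to 55.6) and 51.6% (48.9 to 54.2) of the 1353 other listed windows. In the 1072 other windows in introns or intergenic sequence more than 2500 bp from a TSS they were 56.7% (53.7 to 59.7) and 54.1% (51.1 to 57.1). Peaks are not replicates, so these intervals do not test a difference. A MYB word was found in 20 (35.1%, 24.0 to 48.1) against 26.2% (24.0 to 28.6), with 10 of the 20 in the stretch of chromosome 5 described next.

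Part of this came from 1 place. On chromosome 5, 13 MaLR peaks (8 MTE2b and 5 MTEa) lay between 10942198 and 11912775, at intervals of 55356 to 92358 bp, near genes that included Speer1, 4930558F17Rik, Gm5861 and Gm6460. Speer1 belongs to a family expressed in spermatogenesis. All 13 held the RUNX word followed after 1 base by AGGAAG, an arrangement noticed in these sequences and found in no other repeat peak and in 1 other listed peak. The 45 bases around it were identical in 10 of the 13 and differed by at most 2 bases in the others. Scores there ran from 21.3 to 39.1 with a median of 33.9, and all 13 windows were mainly of recurring words. The same stretch held 11 listed peaks outside annotated repeats, 6 of which lay 7091 to 7171 bp from a MaLR peak and 5 of which lay 9352 to 12180 bp from one. Each of these sets shared words within itself, and the 13 MaLR peaks cannot be counted as independent of each other. In the 44 MaLR peaks elsewhere the shares were 72.7% (58.2 to 83.7) for RUNX and 79.5% (65.5 to 88.8) for ETS, the MYB share fell to 22.7% (12.8 to 37.0), 10 of 44, and the median score was 20.1.

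ORR1D2 peaks shared words at separate places. The 10 peaks lay on 7 chromosomes, and their windows held no recurring words. An ETS word was found in 9 of 10 and a RUNX word in 6 of 10. In 4 of the 6, printed above, TTCC ended 4 bases before the RUNX word. The highest score, 67.9, was in an intron of Itsn1, an endocytic scaffold protein, and the other 9 scored between 15.0 and 24.4. Over all MaLR windows with both words, 20 of 37 had them at most 10 bases apart, 13 of these in the chromosome 5 stretch, which left 7 of 24 elsewhere (29.2%) against 84 of 380 other listed windows (22.1%).

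Other MaLR elements with 4 or more peaks were ORR1E (6 peaks, 17.4 to 36.6), ORR1F (5 peaks, 15.8 to 48.2) and MTD (4 peaks, 15.0 to 49.1). The highest ORR1F peak lay 33.3 kb from Il1r2, a decoy receptor for interleukin-1, and a pair of ORR1F peaks on chromosome 4 with equal scores of 15.8 consisted of words found 2 times in the genome, 1 of them in an intron of Lyn, a Src-family kinase of B cells. The highest MTD peak lay 5.15 kb from Calm4, a calmodulin-like gene. The 13 ERVL peaks had a RUNX word in 7, an ETS word in 5 and a bHLH word in 4. LTR33 near Mtss1, an actin-binding protein, had the highest ERVL score, 39.3. LTR67B had 4 peaks, of which the pair near Slc16a1, a lactate transporter, scored 22.1 and 18.9 and held both a RUNX and a bHLH word.

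The share of windows with each word differed between groups. A RUNX word was in 103 of 134 LTR windows (76.9%, 69.0 to 83.2), 27 of 38 LINE windows (71.1%, 55.2 to 83.0), 14 of 29 SINE windows (48.3%, 31.4 to 65.6) and 6 of 11 DNA transposon windows (54.5%, 28.0 to 78.7). Within LTR elements it was in 33 of 35 ERV1 windows (94.3%, 81.4 to 98.4) and in 18 of 29 ERVK windows (62.1%, 44.0 to 77.3). An ETS word was in 7 of 35 ERV1 windows (20.0%, 10.0 to 35.9), the lowest share of the LTR families. A bHLH word was in 2 of 35 ERV1 windows (5.71%), 2 of 29 ERVK windows (6.90%) and 17 of 38 LINE windows (44.7%, 30.1 to 60.3), against 35.0% (32.5 to 37.6) of other listed windows. A GATA word (AGATAA or TGATAA) was in 17 of 35 ERV1 windows (48.6%, 33.0 to 64.4) against 14.5% (12.7 to 16.5), 14 of them in RLTR4_Mm. The RBPJ word TGGGAA was in 21 of 231 repeat windows (9.09%, 6.02 to 13.5) against 14.2% (12.4 to 16.2). The MYB words CAACTG or AACGG were in no ERV1 window, which allows a share of up to 8.57%. Over all 1584 listed windows the shares were 54.9% for RUNX, 51.4% for ETS, 33.8% for bHLH, 16.1% for GATA, 13.4% for RBPJ and 25.8% for MYB. In the 1072 other windows in introns or intergenic sequence more than 2500 bp from a TSS they were 56.7%, 54.1%, 35.3%, 15.0%, 14.6% and 25.7%. These words are matches of letters, and copies that share sequence share them too.

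**Figure D3:**
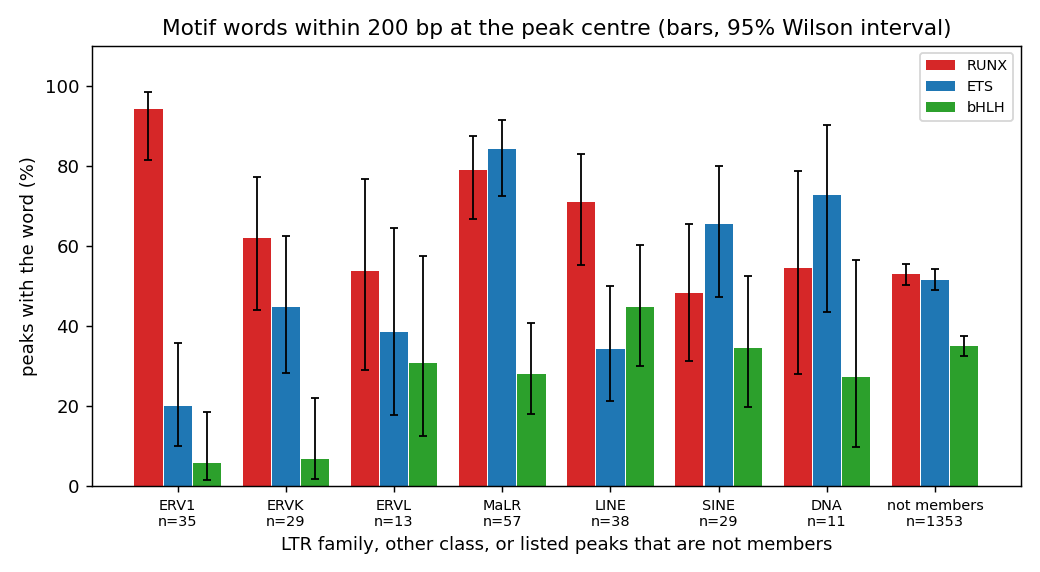
Bars give the share of peaks (%) with the RUNX word TGTGGT, the ETS word CTTCCT or the bHLH word CAGCTG on either strand of the 200 bp at the peak centre, with Wilson 95% intervals. RUNX is at 94.3% in ERV1, and ETS ranges from 20.0% in ERV1 to 84.2% in MaLR.

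LTR peaks without mainly recurring sequence, 76 in number, still held a RUNX word in 55 windows (72.4%, 61.4 to 81.2) and an ETS word in 46 (60.5%, 49.3 to 70.8). Among windows with the word, the median distance of the nearest one from the centre was 24.0 bp in MaLR, 21.5 bp in ERVK, 32.0 bp in ERV1, 35.0 bp in LINE and 33.5 bp in SINE peaks, against 32.0 bp in the other listed windows. It was within 20 bp in 54 of 153 repeat windows, against 236 of 717 other listed windows. By group this was 19 of 45 in MaLR, 9 of 18 in ERVK, 2 of 7 in ERVL and 7 of 33 in ERV1. In LINE it was 8 of 27, in SINE 3 of 14 and in DNA transposon peaks 3 of 6. The MaLR count included 6 from the chromosome 5 stretch, and the ERVK count 5 from RLTR45.

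**Figure D4:**
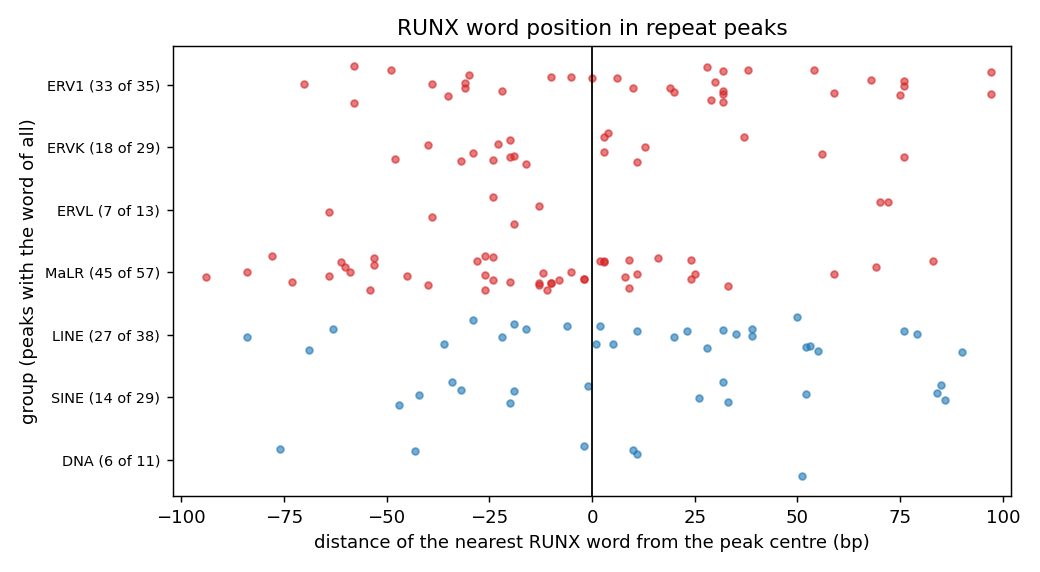
Each point is the RUNX word nearest to the centre of a peak, at its distance in bp from the centre, for the LTR families (red) and other classes (blue). Words lay on both sides of the centre, and the 45 MaLR words had a median distance of 24.0 bp.

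The focus ratio had a median of 0.803 (quartiles 0.765 and 0.837) in repeat peaks and 0.787 (0.745 and 0.825) in the other listed peaks. Its median was 0.789 (0.752 and 0.826) in the 1072 other peaks in introns or intergenic sequence more than 2500 bp from a TSS. It was 0.804 in LTR, 0.806 in LINE, 0.785 in SINE and 0.835 in DNA transposon peaks. ERV1 had the highest median of the LTR families, 0.848, and ERVL the lowest, 0.755. Without peaks mainly of recurring words the ERV1 median was 0.794 (9 peaks), below ERVK at 0.814 and MaLR at 0.802. Medians of the classes ran from 0.646 to 0.835 and those of elements with 4 or more peaks from 0.598 to 0.938. RLTR6_Mm was at the top with a median of 0.938, RLTR3_Mm was at 0.703, and the U3 peaks were at the bottom with 0.598.

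**Figure D5:**
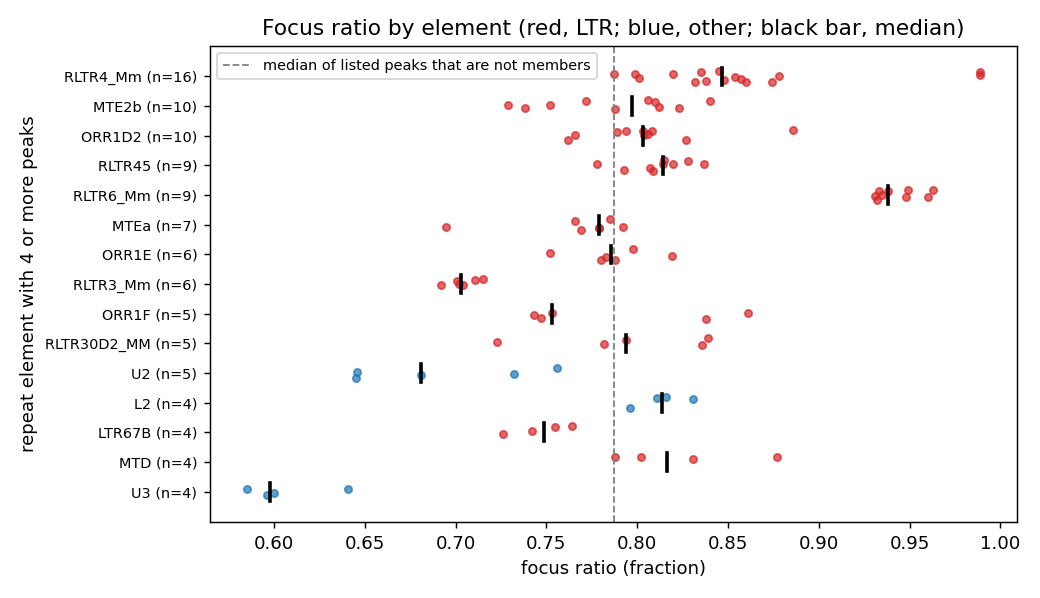
Each point is the focus ratio (a fraction) of a peak in an element with 4 or more peaks, with LTR elements in red, others in blue and medians as black bars. The dashed line is the median of 0.787 of listed peaks outside the set. RLTR6_Mm, L2 and MTD lie wholly to the right of it, and U3, U2, RLTR3_Mm and LTR67B wholly to the left.

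Peaks in small RNA genes formed a group of their own. The 4 U3 peaks all lay in introns of Tex14, a gene of germ-cell intercellular bridges, on the RefSeq genes Rnu3b1, Rnu3b2, Rnu3b3 and Rnu3b4, which encode the U3 small nucleolar RNA of ribosomal RNA processing. Their scores were 16.9, 17.6, 18.1 and 18.5, their focus ratios 0.585 to 0.641, and all 4 held the bHLH word. The 5 U2 peaks scored 16.1 to 23.6 with focus ratios of 0.645 to 0.756, and the 2 U1 peaks near Eapp scored 18.3 and 18.4 with ratios of 0.630 and 0.624. Of the 11 peaks of this class, 10 were mainly of recurring words, and the median focus ratio was 0.641. The 2 peaks annotated as LSU-rRNA_Hsa had high scores, 100.6 in an intron of Jarid2, a cofactor of the Polycomb complex (the list named Dtnbp1), and 65.6 near Apbb1ip, an adaptor of integrin activation. Neither held any of the RUNX, ETS or bHLH words.

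LINE peaks lay mainly in L1 elements (31 of 38), with 4 in L2. The highest were an L1M3 peak near Tubgcp5, a subunit of the gamma-tubulin complex (48.6), an Lx8b peak near BC005537 (44.1) and an HAL1ME peak near 3930402G23Rik (40.9). The 4 L2 peaks scored between 17.7 and 23.6. SINE peaks comprised 9 MIR, 7 B4, 6 B2, 4 Alu and 3 others. An MIRc peak near Gm5122 stood apart at 64.2, with an ETS word and no RUNX word, and the next SINE score was 32.5 (B3). An ETS word was in 7 of 9 MIR windows and a bHLH word in 5, whereas a RUNX word was in 3. In the 4 Alu windows it was the RUNX word that all held. The 11 DNA transposon peaks had the narrowest scores, from 15.1 to 22.4, the highest in URR1B near Spty2d1, a histone chaperone. They included a pair of Tigger1 peaks 1960 bp apart and more than 50 kb from Sdc1, the nearest listed gene, which encodes the plasma-cell surface proteoglycan syndecan-1, with scores of 15.1 and 15.5, and a pair of RCHARR1 peaks near Klhl25, a substrate adaptor of a ubiquitin ligase. The highest simple repeat peak, in a CTG repeat, was nearest to Fam91a1 (24.6).

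The nearest gene was named for 216 of the 231 peaks, and these were 187 different genes. Of the 216, 177 had a protein-coding gene as nearest, 34 a non-coding RNA gene and 5 a pseudogene. The rule set a lower limit on the distance to the TSS. Its median was 24658 bp, against 24064 bp in the 1072 other intronic or intergenic peaks under the same limit, and 81 repeat peaks were more than 50 kb away. A gene named here as near a peak is the one the list gave as nearest. There were 24 genes nearest to more than 1 repeat peak. Tex14 had 4, 4930558F17Rik, Eapp and Klhl25 had 3 each and the other 20 had 2 each. For 18 of the 24 genes all the peaks were in copies of one element. Beside those named above these were 4930515G16Rik, 4930559C10Rik and 5730507C01Rik, 1700003C15Rik, Rdm1 (a DNA repair protein), Ssty1 on Y and Try4, a trypsin gene next to the T-cell receptor beta segments. The remaining 6 were 4930558F17Rik, Eapp (an E2F-associated protein), Klhl25, Gm6460, A630072M18Rik and Dhx40, an RNA helicase. For 37 of the 187 genes the list had another peak outside the set, among them Itsn1, Coro2a, Calm4 and Gm5122.

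None of the 97 genes of 4 lists of lymphoid and progenitor regulators was nearest to a repeat peak. The lists held 42 haematopoietic transcription factors, 18 Notch pathway genes, 23 cytokine receptors and 14 survival genes. Listed peaks outside the set were nearest to 13, 1, 9 and 1 of them, among them Runx1, Cbfa2t3, Lyl1, Erg, Tcf7, Bcl11a, Flt3 and Bcl2l11. In numbers of peaks, 42 of 1247 other peaks with a named gene (3.37%, 2.50 to 4.52) had a gene of the lists as nearest, and 0 of 216 repeat peaks had, which allows a share of up to 1.39%. Among the other peaks in introns or intergenic sequence more than 2500 bp from a TSS, it was 34 of 993 (3.42%, 2.46 to 4.75). The lists were chosen with earlier results of these data known. They include Lyl1, Erg, Tcf7 and Bcl11a, at which the study showed LMO2 peaks, so the difference is not an independent result. The lists do not hold every such gene: Il1r2, a cytokine receptor outside them, was nearest to the highest ORR1F peak (score 48.2). Other genes of blood cells outside the lists, chosen after the values were seen, were Klf2, a factor of lymphocyte quiescence (ID_B1, score 17.3), Cd47, the ligand of SIRP alpha (MTD, 18.3), and St6gal1, a sialyltransferase that makes the CD22 ligand (PB1D10, 18.3).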

How the data were processed

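LMO2 was measured by ChIP-seq in 2 ChIP and 2 input samples of the pro-B(+) line. The authors aligned reads with Bowtie 1.1.1 (up to 3 mismatches, reads that matched up to 10 places retained), used HOMER to call peaks over the input of each ChIP, kept those reproducible in both replicates with a score of 15 or more, and annotated them on mm10. The labels give a read length of 50 nt, and the study's methods give another length and sequencer. The deposited peak score is a normalized score over both samples, and the deposited focus ratio is a fraction. Neither depth nor values per replicate were in the list.

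Members and gene lists were chosen with earlier results of these data known. Words were searched on both strands of 200 bp at each peak centre in GRCm38.p6. The 1584 peaks on chromosomes entered this step, and 1 on an unplaced sequence did not. Each 50-base word was counted in the genome on both strands, and a peak was called mainly repeated when no fewer than 50% of them had a further copy. Word search and word counts were tested on simulated sequences. Peaks that shared at least 50% of their words were linked into groups. Shares have Wilson 95% intervals (statsmodels 0.14.6). The share that a count of 0 allows is not a Wilson limit but an approximation in proportion to the inverse of the number of peaks. It is coarse in small groups: for the 6 RLTR3_Mm windows it gave 50.0%, where the Wilson limit was 39.0%. Both limits take windows as separate, which copies that share sequence are not. No test was made, since the list holds no replicate values and peaks are not replicates. Other listed peaks in introns or intergenic sequence and more than 2500 bp from a TSS were set beside repeat peaks as an alternative added after seeing the data. Alternatives changed the minimum score (30), the distance to the TSS (1000 and 5000 bp), the window (100 bp), the words and the handling of repeated sequence. Named genes were those nearest to the 10 highest-scoring peaks, to the highest of each class and LTR family, to at least 2 peaks, or in the 4 lists, and named elements had 4 or more peaks. Genes that a described peak lay in, or that lay near the highest peak of an element, were added for context. Sequences of ERV1 and ERVK elements are not printed.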

Additional observations from a re-analysis of the deposited data

How the results depend on the processing

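No paired analysis was possible because values per replicate were lacking, and for the same reason no replicate could be left out. Of 150 values recomputed under another setting, 109 moved by less than their interval (counts, by less than 1.5 times) and 41 moved by more, 13 of these for single classes or families. With a minimum score of 30, there were 54 repeat peaks and 43 LTR peaks, the RUNX, ETS and bHLH shares of repeat peaks were 72.2%, 57.4% and 16.7%, the bHLH share of LTR peaks was 9.30%, and 8 genes were nearest to more than 1 peak. Without peaks mainly of repeated words, repeat peaks were 11.4% of the list, LTR peaks numbered 76, median scores were 19.6 for repeat and 19.8 for LTR peaks, bHLH shares were 34.0% and 27.6%, and 2 genes were nearest to more than 1 peak. In 100 bp windows the RUNX shares were 45.5% and 53.0%, the ETS shares 33.3% and 36.6% and the bHLH share of repeat peaks 18.2%, as fewer bases were searched. Wider words gave ETS shares of 65.8% and 71.6% and bHLH shares of 43.3% and 40.3%. The share of repeat peaks in recurring sequence was 22.9% when all words had to recur. Genes nearest to more than 1 peak numbered 12 with identical windows counted once and 12 within 50 kb. Linked peaks counted once, and the chromosome 5 stretch left out, were alternatives chosen after seeing the data: counted once, repeat peaks were 12.7% of the list and 4 genes were nearest to more than 1 peak.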
